A study of Homo sapiens with 65 samples.

Results

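The 10 genes described here encode the core proteins of the basement membrane: COL4A1 and COL4A2, COL18A1, LAMA1, LAMA5, LAMB1, LAMC1, HSPG2, NID1 and NID2. They were taken by name from the 58735 genes of the deposited count table, and all 10 passed the filter on low counts in each fit. The study followed left-ventricular cardioids (aggregates of the human induced pluripotent stem cell line WTC-11 that are steered into heart tissue and form a chamber on their own) by 3′ RNA-seq in 65 libraries of 16 groups. The question posed by the design is what the loss or digestion of hyaluronan, a sugar polymer of the extracellular matrix, does to these cardioids. In the genotype arm, wild-type libraries (WT; 5, 6, 6 and 3 libraries) were set against libraries labelled HAS2-KO (6, 6, 6 and 3) at days 1.5, 2.5, 4.5 and 7.5. HAS2 is a hyaluronan synthase.

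In the enzyme arm all cells carried the WT genotype and each group held 3 libraries. Untreated cardioids were set against cardioids given hyaluronidase, which cuts hyaluronan, from day 1.5 until collection (early enzyme; days 2.5, 4.5 and 7.5) or from day 2.5 until collection (late enzyme; days 4.5 and 7.5). The 3 libraries of each enzyme group came from 3 lines, labelled TNNI1, WT and TNNT2, and values are given in that order throughout. In the genotype arm the WT lines were WT, WT_TU, TNT2 and cl43_WT_UT, and the KO clones were cl4, cl14, cl46 and cl51. Some lines and clones were sampled more than once, so libraries of a group are not all independent lines. Each library pooled 8 cardioids. All lines share the WTC-11 background and the same differentiation scheme.

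A basement membrane is a thin sheet of matrix that underlies epithelia and wraps muscle cells. Laminins, each a trimer of an alpha, a beta and a gamma chain, assemble first on the cell surface, where integrins and dystroglycan hold them. Collagen IV, a trimer of COL4A1 and COL4A2 chains, forms a second network, and nidogens and the heparan sulfate proteoglycan perlecan (HSPG2) link the networks. In the heart, basement membrane surrounds each cardiomyocyte and lines the endocardium. LAMA1 belongs mainly to early embryonic laminin, whereas LAMA2 and LAMA4 are chains of laminins found in muscle and vessels.

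The COL4A1 and COL4A2 genes lie head to head, so the stretch between their starts belongs to the promoters of both, and it is shown because these are the chains of a single protein. The start sites in RefSeq (GRCh38.p14) are 127 bases apart, with COL4A1 read to the left and COL4A2 to the right. The 126 bases between them, chr13:110307158-110307283, plus strand, are printed with matches to a GC box (GGGCGG, or CCGCCC on the other strand) and a CCAAT box (CCAAT, or ATTGG) in capitals.
COL4A1-COL4A2: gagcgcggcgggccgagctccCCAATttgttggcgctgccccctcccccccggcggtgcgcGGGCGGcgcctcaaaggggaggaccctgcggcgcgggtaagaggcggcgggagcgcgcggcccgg
This stretch holds 1 GC box, 1 CCAAT box and no TATA box (TATAAA, or TTTATA), and 80.2% of its bases are G or C. LAMB1 and HSPG2, which were lower with COL4A1 and COL4A2 at day 7.5 under early enzyme, are shown next with the 250 bases before their start sites, printed 5′ to 3′ on the minus strand. LAMB1 is at chr7:108003162-108003411 and HSPG2 at chr1:21937311-21937560.
LAMB1: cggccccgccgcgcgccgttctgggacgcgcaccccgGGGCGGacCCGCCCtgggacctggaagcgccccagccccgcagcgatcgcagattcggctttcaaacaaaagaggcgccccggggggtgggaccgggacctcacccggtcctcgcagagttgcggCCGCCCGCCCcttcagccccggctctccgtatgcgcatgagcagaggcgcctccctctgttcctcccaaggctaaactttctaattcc
HSPG2: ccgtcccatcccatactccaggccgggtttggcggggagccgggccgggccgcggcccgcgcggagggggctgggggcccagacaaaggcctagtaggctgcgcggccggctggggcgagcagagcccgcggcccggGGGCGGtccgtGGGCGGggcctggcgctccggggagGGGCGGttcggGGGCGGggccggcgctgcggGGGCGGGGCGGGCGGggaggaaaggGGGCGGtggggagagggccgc
The LAMB1 window holds 4 GC boxes and the HSPG2 window 8, counting overlapping matches, and neither holds a CCAAT or TATA box. Of the 10 genes, 9 are in the promoter table. Each of the 9 has at least 1 GC box in its 250 bases, against 42.6% of all 35116 promoter windows of that length. A CCAAT box is present in COL4A1, COL4A2, NID1 and NID2, against 32% of all windows, and a TATA box in 1 of the 2 windows of COL18A1, against 10.7%. These windows are rich in G and C, from 66.4% to 88.4% against a median of 58% over all windows. Matches are letters in a window and show no binding.

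Gene positions were taken from GENCODE 29 on GRCh38. COL4A1 (ENSG00000187498) spans chr13:110148963-110307233 and COL4A2 (ENSG00000134871) chr13:110305812-110513209. COL18A1 (ENSG00000182871) spans chr21:45405137-45513720, and HSPG2 (ENSG00000142798) chr1:21822245-21937297. The laminin genes are LAMA1 (ENSG00000101680) at chr18:6941744-7117814, LAMA5 (ENSG00000130702) at chr20:62307955-62367312, LAMB1 (ENSG00000091136) at chr7:107923799-108003255 and LAMC1 (ENSG00000135862) at chr1:183023460-183145592. NID1 (ENSG00000116962) spans chr1:235975830-236065162 and NID2 (ENSG00000087303) chr14:52004803-52069228.

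At 5 of the genes the 3′ end, which is what the assay reads, lies inside a coding gene of the other strand. The pairs are COL18A1 with SLC19A1, LAMA5 with ADRM1, LAMB1 with DLD, HSPG2 with LDLRAD2 and NID2 with RTRAF. Counts of these 5 are uncertain to that degree, because the strand setting of the counting is not given in the sources used here. RTRAF was at 122 to 173 CPM (counts scaled to a library total of 1000000) in WT at day 1.5, where NID2 was at 0 to 1.03 CPM. LDLRAD2 had at most 2.77 CPM in any group, less than HSPG2 in every group.

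Library totals ran from 831062 to 3574843 counts, with a median of 1570954, and replicate spread exceeded counting error in all 115 replicate pairs compared. HAS2 levels overlapped between WT and the libraries labelled KO at each day: at day 2.5 its level was 657 ± 192 CPM among WT and 582 ± 174 CPM among KO libraries, and at day 4.5 339 ± 133 against 351 ± 74.5 CPM (SD, n = 6 each). The labels do not say which part of the gene was removed, and a 3′ tag outside that part checks nothing, so KO below means a library labelled KO. Cardiomyocyte markers (7 genes, summed) rose to 51974 CPM or more in every WT library at day 7.5, where the label is cardiomyocytes. The endothelial gene CDH5 was at 0 in all WT libraries at day 7.5. It was the only 1 of 7 endothelial markers at 0 there, and the 7 summed to 97.0 to 200 CPM. In bulk libraries, fewer cells of a type and less RNA per cell cannot be told apart.

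Library numbers of the genotype arm ran in 3 blocks, A, B and C, and block A did not overlap blocks B and C at 1 or more days for LAMA5, LAMB1, LAMC1, NID1 and HSPG2, genes picked out after their values were seen. The share of all genes separated between blocks in this way was not computed, so nothing particular to these genes can be read from it. At day 2.5 LAMA5 was at 77.0 to 99.6 CPM in the 3 libraries of block A and 26.1 to 42.8 CPM in the 9 of blocks B and C. LAMB1 went the other way, at 57.1 to 77.0 CPM in block A and 104 to 131 CPM in the others. At day 4.5 LAMC1 was at 143 to 282 CPM in block A and 312 to 564 CPM in the others, and NID1 at 9.06 to 16.8 against 31.6 to 63.3 CPM. HSPG2 was at 44.0 to 61.5 CPM in block A and 12.7 to 41.1 CPM in the others at day 1.5, and at a median of 76.5 against 41.2 CPM at day 2.5, where the ranges did not overlap either, and overlapped at day 4.5. Block A holds 2 WT libraries and 1 KO library at each of days 1.5, 2.5 and 4.5. At day 7.5 WT was drawn from blocks A and B but KO from B and C, so only block B held both genotypes there.

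In untreated and WT cardioids the basement membrane genes did not move as one. LAMA1, the embryonic laminin alpha chain, rose sharply to day 2.5 and had fallen by day 7.5. NID2, the second nidogen, went from almost no counts at day 1.5 to 168 CPM or more in every WT library of day 4.5. COL4A2 and the beta chain LAMB1 had their highest means at day 7.5, though WT libraries of LAMB1 overlapped between days. CPM compares a gene between libraries; it was not used to compare genes with each other.

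LAMA1 stood at 29.9, 13.5, 28.2, 55.9 and 16.5 CPM in the WT libraries at day 1.5 (WT_R1, WT_TU_R1, WT_R2, cl43_WT_UT and TNT2). At day 2.5 the WT libraries ran from 139 to 251 CPM with a median of 218, at day 4.5 from 87.8 to 208 with a median of 124, and at day 7.5 they were at 24.6, 33.5 and 15.5 CPM. All libraries of day 2.5 were thus above all of days 1.5 and 7.5. LAMA1 was 6.30-fold higher at day 2.5 than at day 1.5 (log2 difference 2.65, SE 0.33, edgeR quasi-likelihood adjusted p = 3.551e-08) and fell by 2.39 on the log2 scale from day 4.5 to day 7.5 (SE 0.41, adjusted p = 0.00032). Untreated cardioids of the enzyme arm gave the same order: 249.7, 252 and 296 CPM at day 2.5, 121, 197 and 199 CPM at day 4.5, and 22.3, 42.1 and 51.9 CPM at day 7.5. The enzyme arm had no libraries of day 1.5. Its steps from day 2.5 to 4.5 and from day 4.5 to 7.5 passed the test (edgeR adjusted p = 0.0161 and 2.185e-05). The first of these calls was lost without day 4.5 replicate 1 (0.109) or day 2.5 replicate 3 (0.0761). In WT the step from day 2.5 to 4.5 was not called for LAMA1, and it passed in 2 of 17 alternative fits.

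NID2, which binds laminin gamma chains and collagen IV, had 3 counts in total over the 5 WT libraries of day 1.5, with 0 in 3 of them. At day 2.5 the WT libraries held 6.79 to 42.8 CPM with a median of 23.3, a ratio of 92.3 to day 1.5 (95% interval 31.3 to 450.2, counting error only, from 279 counts against 3). By day 4.5 the range was 168 to 324 CPM with a median of 277, a further log2 rise of 3.50 (SE 0.38, edgeR adjusted p = 1.261e-09). The 3 WT libraries of day 7.5 were at 152, 234 and 145 CPM and overlapped those of day 4.5. In untreated cardioids NID2 went from 15.8, 43.8 and 25.2 CPM at day 2.5 to 205, 282 and 277 CPM at day 4.5 (edgeR adjusted p = 7.121e-05). NID1, the other nidogen, rose by 1.08 in WT (log2, edgeR adjusted p = 0.0184) and by 1.46 in untreated cardioids (adjusted p = 0.000568) over that step; the WT call was lost without any one of 3 libraries (day 2.5 WT_TU_R1, day 4.5 cl43_WT_UT or TNT2; adjusted p 0.0550 to 0.0725).

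COL4A2 was at 54.5 to 86.1 CPM in the 6 WT libraries of day 4.5 and at 163, 215 and 186 CPM in the 3 of day 7.5, with no overlap. The rise was 2.60-fold (log2 1.38, SE 0.21, edgeR adjusted p = 7.504e-05). Untreated cardioids went from 68.9, 65.7 and 101.5 CPM to 139, 242 and 133 CPM (log2 1.24, SE 0.32, adjusted p = 0.0223), a call lost without day 4.5 replicate 1 (0.0678), day 4.5 replicate 2 (0.1101) or day 7.5 replicate 2 (0.0621). COL4A1, its partner chain, had 22.4 to 40.7 CPM at day 4.5 and 49.8, 64.2 and 63.4 CPM at day 7.5 in WT, a log2 difference of 0.89 that missed the threshold (edgeR adjusted p = 0.0746).

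HSPG2, which encodes perlecan, rose by 0.92 in WT between days 2.5 and 4.5 (log2, SE 0.28, edgeR adjusted p = 0.00907), from a median of 37.7 to 87.7 CPM. In untreated cardioids its rise came a step later, from 78.5, 34.6 and 49.4 CPM at day 4.5 to 216, 114 and 223 CPM at day 7.5 (log2 1.87, SE 0.34, adjusted p = 0.00201). Whether the arms differ in this timing was not tested. COL18A1, whose product carries heparan sulfate and releases endostatin, rose by 1.28 in WT between days 2.5 and 4.5 (log2, SE 0.19, edgeR adjusted p = 1.196e-06), from 71.9 to 102 CPM to 160.3 to 255 CPM. In untreated cardioids that step of COL18A1 was not called, and it passed in 1 of 11 alternative fits. Untreated libraries ran from 130.2 to 138 CPM at day 2.5 and from 194 to 243 CPM at day 4.5. LAMB1 in untreated cardioids went from 79.8, 119.9 and 108 CPM at day 4.5 to 184, 276 and 177 CPM at day 7.5 (log2 1.17, SE 0.28, adjusted p = 0.0145), a call lost without day 4.5 replicate 1 (0.0581) or replicate 3 (0.0545). In WT that step of LAMB1 was not called, and it passed in 3 of 14 alternative fits. WT libraries of day 7.5 (134 to 244 CPM) overlapped those of day 4.5 (53.3 to 136 CPM) and day 1.5 (51.2 to 177 CPM).

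LAMA5, the alpha chain of a widespread adult laminin, rose in untreated cardioids between days 2.5 and 4.5 (log2 1.82, SE 0.55, edgeR adjusted p = 0.0196), from 21.4, 11.6 and 11.2 CPM to 49.1, 73.7 and 52.9 CPM; the call was lost without any one of 3 libraries (day 2.5 replicate 2 or 3, day 4.5 replicate 2; adjusted p 0.0682 to 0.0823). LAMC1, the gamma chain shared by most laminins, rose by 0.81 in WT between days 1.5 and 2.5 (edgeR adjusted p = 0.0461), and that call was lost without any one of 6 libraries (adjusted p 0.0520 to 0.149: WT_R1 or WT_TU_R1 of day 1.5, and WT_R2, WT_TU_R2, cl43_WT_UT or TNT2 of day 2.5). The COL4A2 rise between days 2.5 and 4.5 in WT (log2 0.46, edgeR adjusted p = 0.0496) was lost in 8 of the 12 fits that left out a library of those days (adjusted p 0.0554 to 0.133: WT_R2, WT_TU_R2, cl43_WT_UT or TNT2 of day 2.5, and WT_R1, WT_TU_R1, WT_R2 or TNT2 of day 4.5).

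Counted over the set, 3 of 10 genes rose in WT from day 1.5 to 2.5, when 30.1% of all genes changed, and 5 of 10 rose from day 2.5 to 4.5, when 34.5% changed. From day 4.5 to 7.5, 1 rose and 1 fell, against 2.7% of all genes. In untreated cardioids 3 rose and 1 fell from day 2.5 to 4.5, against 23%, and again 3 rose and 1 fell from day 4.5 to 7.5, against 6.39%. Counted in either direction, the first WT steps are thus close to the share of all genes. None of the 10 was called lower in them in the reported fit. With the blocks of library numbers in the edgeR fit, LAMB1 fell from day 1.5 to 2.5 (log2 −0.48, adjusted p = 0.028). In that fit LAMA1 fell from day 2.5 to 4.5 (−0.62, adjusted p = 0.0124). It also added rises of LAMA5 in the first step (1.08, adjusted p = 0.000168) and LAMC1 in the second (0.44, adjusted p = 0.0376). Over all 13797 genes, 2071 rose and 2082 fell from day 1.5 to 2.5, and 2562 rose and 2194 fell from day 2.5 to 4.5.

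**Figure D1:**
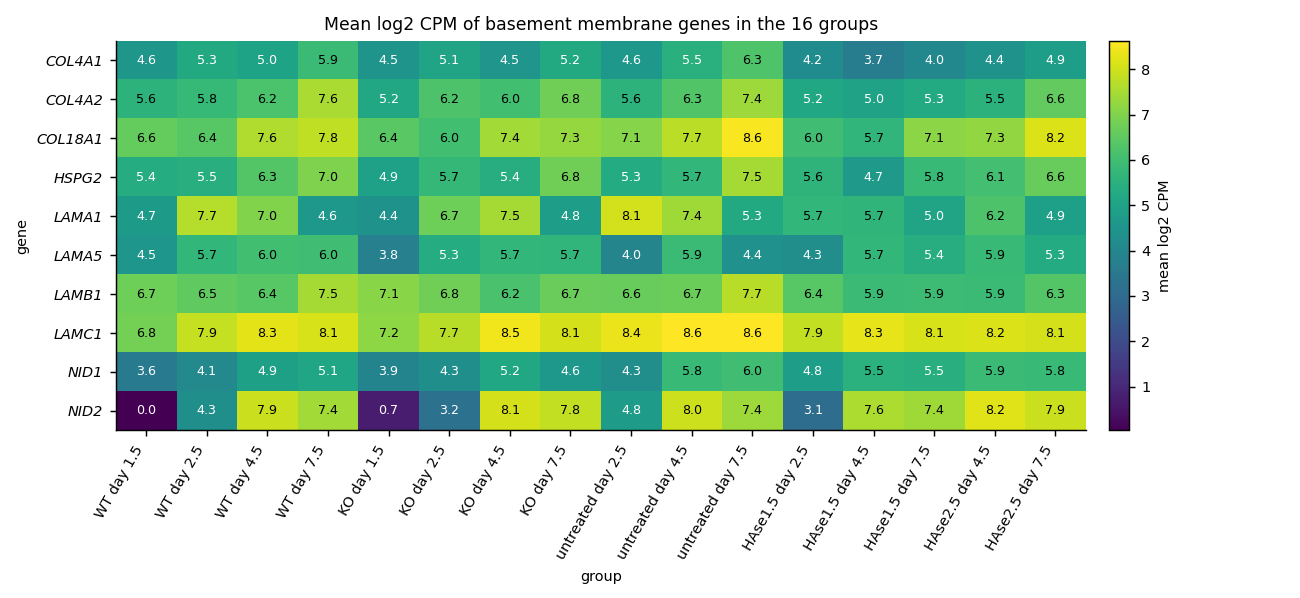
Mean log2 CPM of each of the 10 genes (rows) in the 16 groups (columns; HAse1.5 is early and HAse2.5 late enzyme), by colour. NID2 spans the widest range, from 0.26 CPM on average in WT at day 1.5 to 297 CPM under late enzyme at day 4.5, and LAMA1 is highest at day 2.5 in untreated cardioids.

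With early enzyme the genes that passed were lower than in untreated cardioids. LAMA1 alone fell at day 2.5, both collagen IV chains, COL18A1 and LAMA1 fell at day 4.5, and both collagen IV chains, COL18A1, LAMB1 and HSPG2 fell at day 7.5. That is 1, 4 and 5 of 10 genes, all lower, where 1.15%, 3.48% and 3.33% of all genes were called. None of the 10 rose. The median log2 difference of the 10 was −0.47, −1.03 and −1.01 at the 3 days, against a median over all genes of 0, 0.02 and 0.02.

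LAMA1 at day 2.5 had 249.7, 252 and 296 CPM in untreated cardioids and 52.2, 51.9 and 50.0 CPM after 1 day of enzyme. The groups were far apart and the treated libraries were nearly equal. The difference was 5.31-fold (log2 −2.41, SE 0.24, edgeR adjusted p = 2.025e-06), and was −2.23, −2.25 and −2.53 within the 3 lines. At day 4.5 LAMA1 was at 121, 197 and 199 CPM untreated and 45.3, 61.4 and 43.7 CPM treated, 3.64-fold lower (log2 −1.86, SE 0.24, adjusted p = 0.0001001). By day 7.5, when untreated cardioids were down to 22.3, 42.1 and 51.9 CPM, treated ones had 32.6, 31.6 and 30.7 CPM, inside the untreated range (log2 −0.42, 95% interval −0.95 to 0.10). LAMA1 in treated cardioids therefore lay between 30.7 and 61.4 CPM in all 9 libraries.

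The collagen IV chains showed their largest differences at day 7.5. COL4A1 had 73.2, 58.1 and 102 CPM untreated and 13.9, 17.3 and 13.9 CPM treated, 5.61-fold lower (log2 −2.49, SE 0.35, edgeR adjusted p = 0.000137). COL4A2 had 139, 242 and 133 CPM untreated and 23.6, 49.6 and 46.0 CPM treated, 4.62-fold lower (log2 −2.21, SE 0.34, adjusted p = 0.000389). Neither pair of groups overlapped, and both chains were lower in each of the 3 lines. At day 4.5 COL4A1 was at 32.1, 50.6 and 48.7 CPM untreated and 15.5, 12.1 and 8.15 CPM treated (3.86-fold, SE 0.36 on the log2 scale, edgeR adjusted p = 0.00199). COL4A2 was at 68.9, 65.7 and 101.5 CPM untreated and 27.9, 20.7 and 46.0 CPM treated (2.61-fold, SE 0.34 on the log2 scale, adjusted p = 0.0204). This last call was lost without early enzyme replicate 1 (0.111) or 2 (0.0806), or untreated replicate 3 (0.111). At day 2.5 both chains overlapped between groups. Their genes share the stretch printed above between the COL4A1 and COL4A2 starts.

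COL18A1 was at 243, 194 and 197 CPM in untreated cardioids of day 4.5 and 33.5, 89.9 and 41.9 CPM in treated ones, 4.11-fold lower (log2 −2.04, SE 0.36, edgeR adjusted p = 0.00199). At day 7.5 it was at 401, 313 and 425 CPM and 68.5, 217 and 177 CPM, 2.67-fold lower (log2 −1.41, SE 0.34, adjusted p = 0.0226). The line labelled WT kept the highest treated level at both days. The day 7.5 call was lost without early enzyme replicate 1 (0.107), untreated replicate 1 (0.0744) or untreated replicate 3 (0.0932), and with only the libraries compared in the fit (0.107). SLC19A1, the gene overlapping its 3′ end, differed by −1.23 at day 4.5 (edgeR adjusted p = 0.349) and −0.17 at day 7.5 (adjusted p = 0.917). At day 2.5 COL18A1 was at 130.2, 138 and 131 CPM untreated and 58.3, 98.3 and 41.2 CPM treated, with no overlap but short of the threshold (log2 −1.05, SE 0.35, adjusted p = 0.219); without early enzyme replicate 2 it passed (0.0474).

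LAMB1 at day 7.5 had 184, 276 and 177 CPM untreated and 35.9, 94.2 and 59.3 CPM treated, 3.62-fold lower (log2 −1.86, SE 0.29, edgeR adjusted p = 0.000435). DLD, which overlaps it on the other strand, differed by −0.38 there (adjusted p = 0.365). At day 4.5 LAMB1 was at 79.8, 119.9 and 108 CPM untreated and 58.3, 81.2 and 41.3 CPM treated (log2 −0.85, SE 0.29, adjusted p = 0.118); with the line as a block this difference of −0.87 passed (adjusted p = 0.0191), as it did without early enzyme replicate 2 (0.0422). HSPG2 at day 7.5 had 216, 114 and 223 CPM untreated and 31.0, 61.1 and 87.8 CPM treated, 3.31-fold lower (log2 −1.73, SE 0.34, edgeR adjusted p = 0.00486). With only the libraries compared in the fit its adjusted p was 0.0682. At day 4.5 HSPG2 was at 78.5, 34.6 and 49.4 CPM untreated and 29.8, 22.5 and 22.1 CPM treated (log2 −1.22, adjusted p = 0.0681), and passed without untreated replicate 2 (0.0384) and in DESeq2 (0.0321).

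The remaining 4 genes passed at no day. LAMC1 lay between 134 and 493 CPM in all untreated and early enzyme libraries. NID1 was at 63.4, 61.3 and 62.3 CPM untreated and 32.6, 61.8 and 39.0 CPM treated at day 7.5 (log2 −0.60, edgeR adjusted p = 0.249). NID2 at day 2.5 was at 15.8, 43.8 and 25.2 CPM untreated and 4.80, 22.4 and 3.12 CPM treated, lower in each line (log2 −1.53, SE 0.56, adjusted p = 0.294; −1.59 and 0.0346 with the line as a block, −2.82 and 0.0139 without early enzyme replicate 2). LAMA5 pointed the other way at day 7.5, at 15.2, 37.7 and 12.6 CPM untreated and 66.8, 85.6 and 11.2 CPM treated (log2 1.18, SE 0.54, adjusted p = 0.269). The TNNT2 line did not share that difference, and without its treated library the value was 1.66 (adjusted p = 0.0361).

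Some markers of cell types also differed between these groups. At day 2.5 the sum of 7 cardiomyocyte markers was 2581 to 3393 CPM untreated and 1261 to 1464 CPM with early enzyme, with MYH6 and ACTN2 at 0 in the treated libraries. Of these 7 markers, 0 were called at that day. The mesoderm gene PDGFRA was called lower (log2 −2.03, edgeR adjusted p = 0.00215). It was the only 1 called of 4 mesoderm markers tested, and their median log2 difference was 1.55. Mesoderm sums overlapped, at 397 to 565 CPM untreated and 344 to 452 CPM with early enzyme. Summed over 7 cardiomyocyte markers, untreated libraries held 22978 to 44521 CPM at day 4.5 and early enzyme libraries 5154 to 18907, and 5 of 7 markers were called lower. At day 7.5 the sums were 58827 to 68041 and 29532 to 33250 CPM, with 2 of 7 called lower. Of 6 fibroblast or smooth muscle markers, 2 were lower at day 4.5 (sums of 1751 to 2438 against 553 to 1086 CPM) and 1 at day 7.5, where the sums overlapped (932 to 2040 against 1011 to 1704 CPM). The epicardial gene WT1 was called lower (edgeR adjusted p = 0.0478) and the pluripotency gene L1TD1 higher (log2 2.56, adjusted p = 0.0200) at day 4.5, and the endoderm gene AFP lower (adjusted p = 0.00167) at day 7.5. The mitochondrial share of counts at day 7.5 was 1.05%, 0.902% and 2.39% untreated and 0.426%, 0.591% and 1.11% with early enzyme, lower in each line. The part of these shifts in the basement membrane values was not tested.

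**Figure D2:**
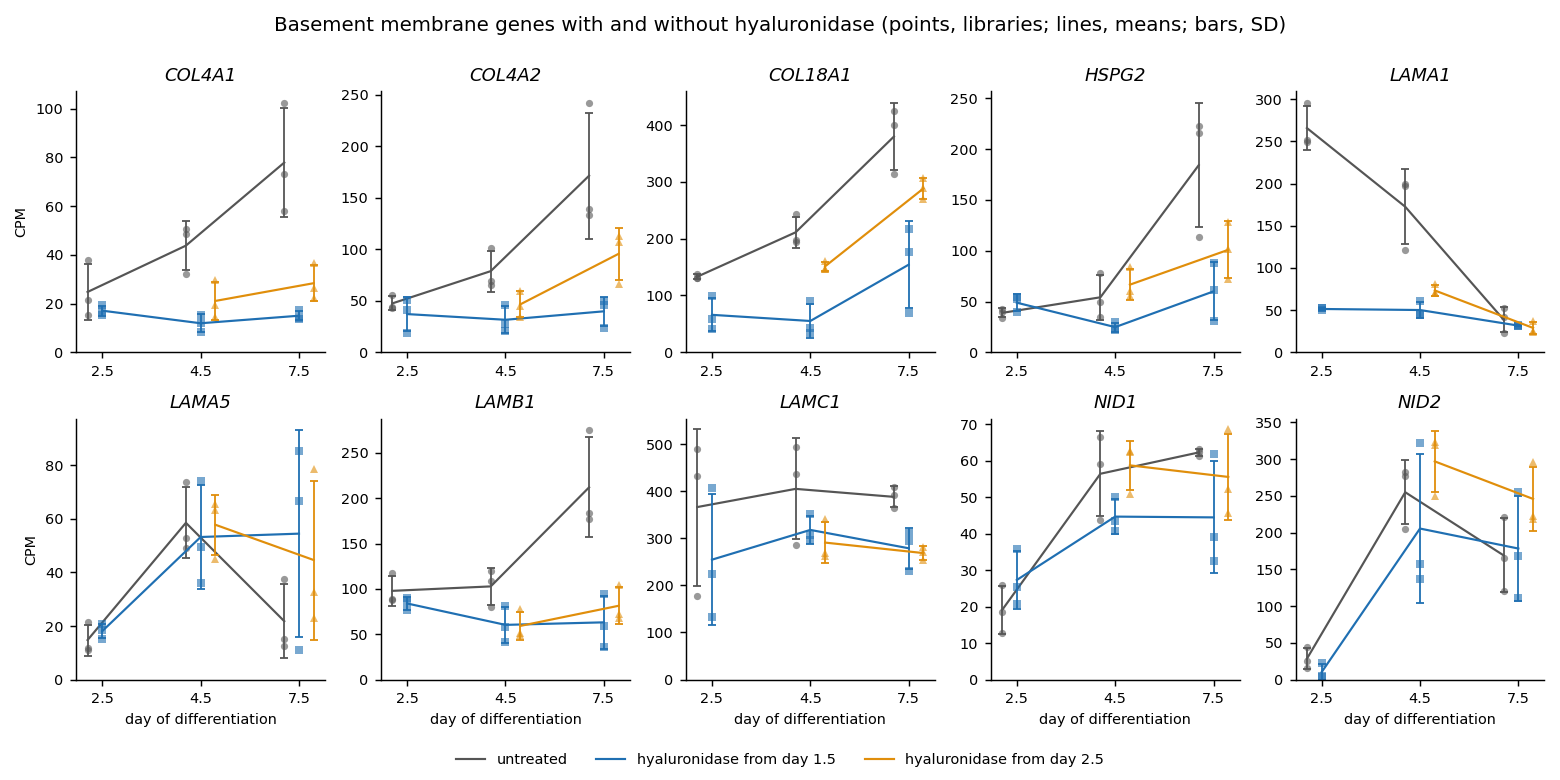
CPM of the 10 genes by day in untreated, early enzyme (from day 1.5) and late enzyme (from day 2.5) cardioids, 1 panel per gene. Points are libraries (3 a group, offset sideways by group), lines join group means and bars are SD. The early enzyme points of COL4A1 and COL4A2 lie below all untreated points at days 4.5 and 7.5, and those of LAMA1 at days 2.5 and 4.5.

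Late enzyme, begun a day later, gave fewer calls. LAMA1 was lower at day 4.5, and COL4A1 and LAMB1 were lower at day 7.5: 1 and 2 of 10 genes, against 0.22% and 0.659% of all genes. These comparisons share their untreated libraries with those of early enzyme. LAMA1 had 69.7, 80.4 and 69.9 CPM at day 4.5, below the untreated 121, 197 and 199 CPM (2.40-fold, log2 −1.26, SE 0.23, edgeR adjusted p = 0.0152). COL4A1 had 26.3, 22.1 and 36.7 CPM at day 7.5, below the untreated 73.2, 58.1 and 102 CPM (2.86-fold, log2 −1.52, SE 0.32, adjusted p = 0.0303). LAMB1 had 72.0, 105 and 67.5 CPM at day 7.5, below the untreated 184, 276 and 177 CPM (2.71-fold, log2 −1.44, SE 0.28, adjusted p = 0.0174).

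All 3 genes were lower in each of the 3 lines, and each call was lost when some single libraries were left out. LAMA1 lost its call without any late enzyme replicate (adjusted p 0.107, 0.0599 and 0.134 for 1, 2 and 3) or without untreated replicate 2 (0.0883) or 3 (0.1001). COL4A1 lost it without any late enzyme replicate (0.0941, 0.176 and 0.0814) or untreated replicate 1 (0.0696) or 3 (0.194). LAMB1 lost it without late enzyme replicate 1 (0.0768) or 3 (0.128). With only the libraries compared, COL4A1 and LAMB1 reached 0.0892 and 0.0589. COL4A2 at day 7.5 was at 66.4, 113 and 107 CPM, below the untreated libraries but short of the threshold (log2 −0.90, edgeR adjusted p = 0.217). COL18A1, at 160.3, 146 and 147 CPM at day 4.5, also lay below all untreated libraries (log2 −0.52, adjusted p = 0.895). Beside these, the smooth muscle gene TAGLN was called lower at day 4.5 (log2 −2.58, edgeR adjusted p = 0.00801) and AFP at day 7.5 (adjusted p = 0.0127). Cardiomyocyte marker sums with late enzyme were 17279 to 30964 CPM at day 4.5, overlapping untreated, and 36895 to 59908 CPM at day 7.5 against 58827 to 68041 CPM, with no marker of that list called. Their part in the values was not tested.

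Early and late enzyme were also set against each other directly. None of the 10 genes passed in edgeR at day 4.5, against 0.361% of all genes, or at day 7.5, against 0.00784%. At an unadjusted p under 0.05 there were 4 of 10 at each day, against 9.65% and 5.64% of all genes. DESeq2 called 2 and 1 of the 10, and 167 and 39 over all genes. COL18A1 at day 4.5 was at 33.5, 89.9 and 41.9 CPM with early and 160.3, 146 and 147 CPM with late enzyme, without overlap (log2 −1.52, 95% interval −2.27 to −0.78, edgeR adjusted p = 0.0638). HSPG2 was at 29.8, 22.5 and 22.1 CPM with early and 84.1, 55.4 and 60.3 CPM with late enzyme (log2 −1.47, 95% interval −2.22 to −0.72, adjusted p = 0.0718). With the line as a block both passed (adjusted p = 0.0410 and 0.0466), and COL18A1 also did without early enzyme replicate 2 (0.00327). At day 7.5 COL4A2 came nearest (log2 −1.30, adjusted p = 0.268), at 23.6, 49.6 and 46.0 CPM with early and 66.4, 113 and 107 CPM with late enzyme. LAMB1 and LAMC1 at day 4.5 differed by −0.02 and 0.08, with 95% intervals of −0.63 to 0.58 and −0.59 to 0.75.

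In the genotype arm only HSPG2 passed in the reported fit, at day 4.5. With the blocks of library numbers in the fit, LAMA1 and NID2 at day 2.5 and LAMB1 at day 7.5 also passed. Of the 10 genes 0, 0, 1 and 0 were called at days 1.5, 2.5, 4.5 and 7.5, against 0%, 0.993%, 3.74% and 0.348% of all genes. At an unadjusted p under 0.05 the counts were 0, 4, 2 and 3 of 10, against 4.28%, 10.5%, 19.1% and 5.53% of all genes. DESeq2 called 0, 2, 1 and 0 of the 10, and 0, 232, 782 and 68 over all genes. At day 1.5 no gene of 13797 was called in edgeR or DESeq2, and 591 had an unadjusted p under 0.05. The median log2 differences of the 10 were −0.22, −0.31, −0.22 and −0.43, against 0, 0.01, −0.03 and 0.00 over all genes.

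HSPG2 ran from 49.5 to 125 CPM in the 6 WT libraries of day 4.5 with a median of 87.7, and from 28.1 to 61.9 CPM in the 6 KO libraries with a median of 38.2. The ranges overlapped between 49.5 and 61.9 CPM. HSPG2 was 2.17-fold lower in KO (log2 −1.12, SE 0.29, 95% interval −1.70 to −0.54, edgeR adjusted p = 0.0191). Within blocks A, B and C the difference was −1.59, −1.06 and −0.73. The call was lost without WT_R1 (0.0623), WT_TU_R1 (0.0720), cl46_R1 (0.0608) or cl51_R1 (0.0542). It was also lost in block C alone, which held 4 KO and 2 WT libraries (−0.82, edgeR adjusted p = 0.234). HSPG2 overlapped between genotypes at the other days: 27.4 to 61.5 against 12.7 to 44.0 CPM at day 1.5, 29.2 to 76.5 against 35.6 to 85.4 CPM at day 2.5, and 133, 121 and 119.6 against 91.8, 141 and 95.6 CPM at day 7.5. At day 4.5 in KO, 2 of 7 cardiomyocyte and 2 of 6 fibroblast or smooth muscle markers were called lower and 2 of 7 endoderm, 2 of 4 pluripotency and 1 of 5 mesoderm markers higher, with cardiomyocyte sums of 26834 to 56554 CPM in WT and 15591 to 40709 CPM in KO. Pluripotency sums were 4.32 to 21.4 CPM in WT and 20.5 to 71.2 CPM in KO, and mesoderm sums 144 to 296 and 351 to 494 CPM. Their part in the HSPG2 value was not tested.

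LAMA1 at day 2.5 showed the clearest separation without passing the test. The 6 WT libraries ran from 139 to 251 CPM with a median of 218 and the 6 KO libraries from 79.4 to 126 CPM with a median of 105, so the groups did not overlap. The difference was 2.00-fold (95% interval −1.59 to −0.42 on the log2 scale, SE 0.29, edgeR adjusted p = 0.0910) and was −1.02, −0.87 and −1.16 within the 3 blocks. It passed in DESeq2 (0.0442), with only the libraries compared (0.0106), and in block C alone (log2 −1.18, edgeR adjusted p = 8.026e-09). Block C held 4 KO and 2 WT libraries at that day, and its fit was added after the data were seen. With the blocks in the edgeR fit it passed as well (log2 −1.22, adjusted p = 0.000441). At day 4.5 the ranges overlapped, with 87.8 to 208 CPM in WT and 97.0 to 265 CPM in KO (log2 0.45, adjusted p = 0.400), and the difference was −0.02, −0.18 and 0.46 within the blocks.

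NID2 at day 2.5 had 6.79 to 42.8 CPM in WT with a median of 23.3 and 5.09 to 18.5 CPM in KO with a median of 7.34. Ranges overlapped, and the difference of −1.39 (log2, SE 0.41) had an edgeR adjusted p of 0.0968. It was −0.66, −1.24 and −1.83 within the blocks and passed in DESeq2 (0.0165) and without WT_TU_R1 (0.0292), WT_TU_R2 (0.0425) or cl46_R1 (0.0407). It also passed in block C alone (5.832e-05), the fit of 4 KO and 2 WT libraries added after the data were seen. With the blocks in the edgeR fit the NID2 difference also passed (log2 −1.53, adjusted p = 0.0149). At day 4.5 WT libraries were at 168 to 324 CPM and KO libraries at 241 to 310.4 CPM. At day 2.5, 3 of 7 cardiomyocyte markers were called lower in KO and 2 of 5 mesoderm markers higher. The sums of both lists overlapped. Cardiomyocyte sums were 374 to 2770 CPM in WT and 828 to 1702 CPM in KO. Mesoderm sums were 422 to 570 CPM in WT and 297 to 517 CPM in KO, with the lower median in KO (372 against 490 CPM). The part of these markers in the LAMA1 and NID2 values was not tested.

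At day 7.5 the collagen IV chains, COL18A1 and LAMB1 were below all WT libraries in each KO library without passing; over all genes 5.53% had an unadjusted p under 0.05 at that day, and the share of genes separated in this way was not computed. COL4A2 was at 163, 215 and 186 CPM in WT and 133, 108 and 89.6 CPM in KO (log2 −0.80, SE 0.26, edgeR adjusted p = 0.284). COL4A1 was at 49.8, 64.2 and 63.4 CPM in WT and from 25.9 to 46.9 CPM in KO (log2 −0.68, adjusted p = 0.886). COL18A1 ran from 216 to 231 CPM in WT and from 131 to 197 CPM in KO (log2 −0.53, SE 0.27, adjusted p = 0.930). LAMB1 was at 167, 244 and 134 CPM in WT and 119.7, 89.8 and 94.9 CPM in KO (log2 −0.88, SE 0.39, adjusted p = 0.794). With only the libraries compared in the fit, COL4A2 (0.0228) and LAMB1 (0.0312) passed. With the blocks in the edgeR fit LAMB1 passed (log2 −1.29, adjusted p = 0.00154). Block B, the 1 block with both genotypes, gave −0.58 for COL4A2 and −0.59 for LAMB1.

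**Figure D3:**
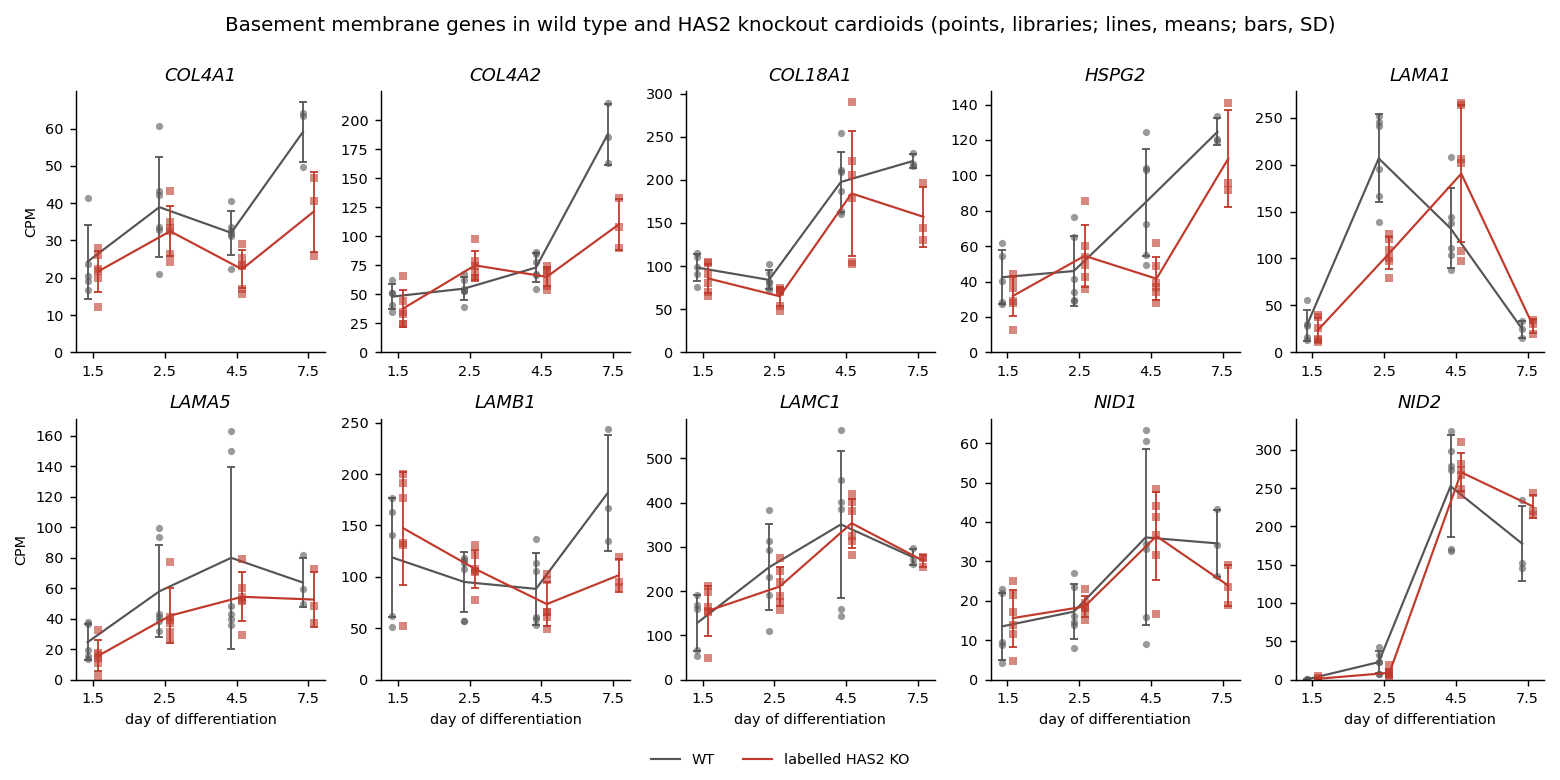
CPM of the 10 genes by day in WT and labelled HAS2-KO libraries, 1 panel per gene. Points are libraries, lines join group means and bars are SD. The KO points of LAMA1 at day 2.5 (79.4 to 126 CPM) lie below all WT points (139 to 251 CPM), and those of HSPG2 at day 4.5 lie mostly below.

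Whether an effect changed over the days was tested for each gene. For early enzyme 1 of 10 genes passed, against 1.01% of all genes: the LAMA1 difference, −2.41, −1.86 and −0.42 at the 3 days, changed (edgeR adjusted p = 0.00727). HSPG2, at 0.30, −1.22 and −1.73, and LAMB1, at −0.25, −0.85 and −1.86, came next (adjusted p = 0.0734 and 0.0947), and both passed with the line as a block. For KO none passed in edgeR, against 0.674% of all genes, and COL4A2 was lowest (edgeR adjusted p = 0.161). At an unadjusted p under 0.05 there were 4 of 10, against 7.65% of all genes. DESeq2 called 2 of the 10, and 250 over all genes.

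The KO effect was also set against the early enzyme effect in a fit of all 65 libraries. At day 4.5, 2 of 10 genes differed, against 0.271% of all genes. LAMA1 was 0.45 in KO and −1.86 with enzyme, a difference of 2.34 (log2, SE 0.45, edgeR adjusted p = 0.00594), and COL18A1 was −0.19 and −2.04, a difference of 1.87 (SE 0.38, adjusted p = 0.00903). Both calls were lost without early enzyme replicate 1 (0.0824 for LAMA1 and 0.149 for COL18A1) or replicate 3 (0.0704 and 0.1345). HSPG2, at −1.12 in KO and −1.22 with early enzyme (the latter short of the threshold), differed by 0.12 between them, with a 95% interval of −0.86 to 1.11. None of the 10 passed in edgeR at day 2.5 or at day 7.5, against 0.0925% of all genes at each. At an unadjusted p under 0.05 there were 1 and 4 of 10, against 4.95% and 7.37% of all genes. DESeq2 called 0 of the 10 at each. At day 7.5 COL4A1 differed by 1.81 (edgeR adjusted p = 0.179; 2.02 and 0.0187 with the replicate block).

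**Figure D4:**
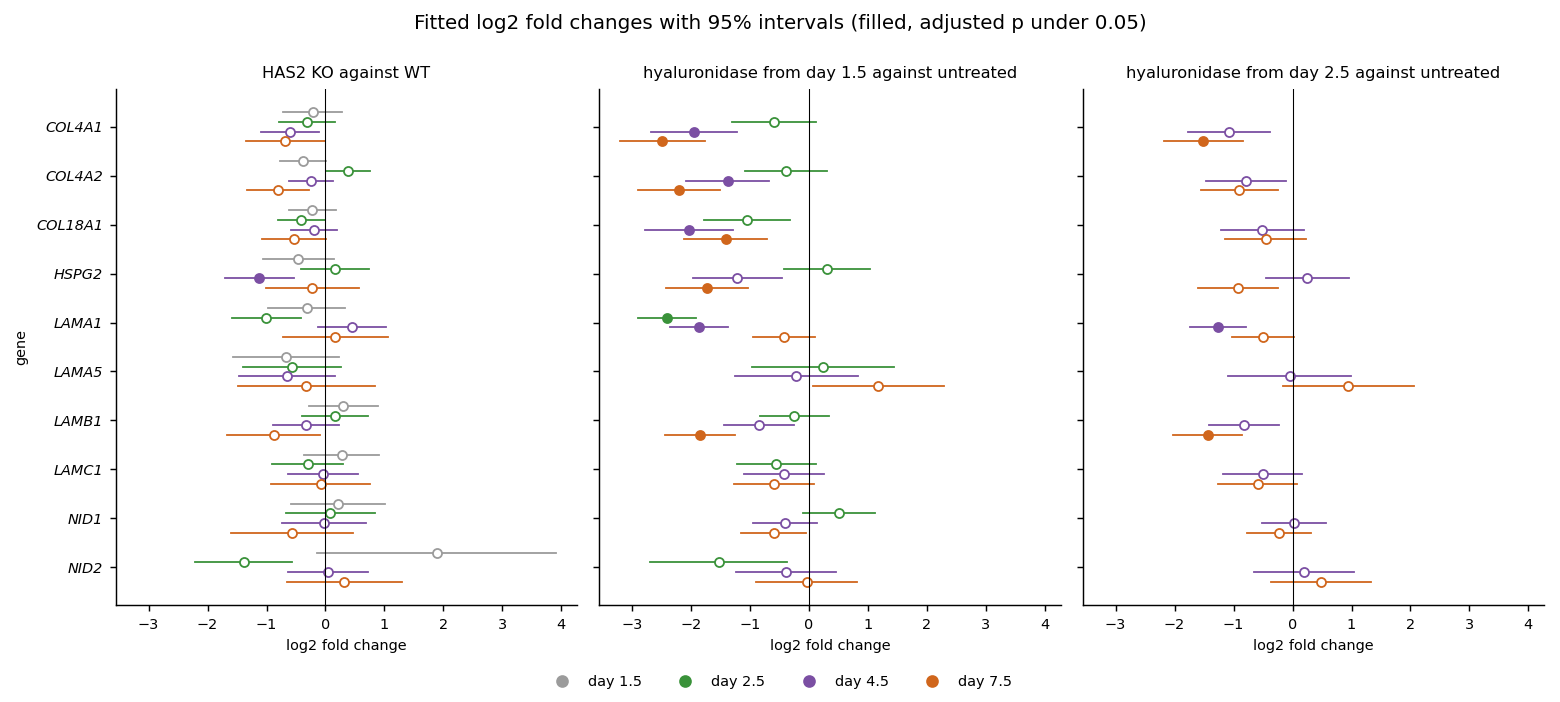
Log2 difference of each gene with its 95% confidence interval in KO against WT, early enzyme against untreated, and late enzyme against untreated, by day. Filled points have an adjusted p under 0.05: 1 in the KO panel (HSPG2, −1.12), 10 in the early enzyme panel and 3 in the late enzyme panel.

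Other genes of the same structure were read from 4 lists. Of 26 further basement membrane components, 17 were tested in the genotype arm and 18 in the enzyme arm. In KO 2 were higher and 2 lower at day 4.5 and none were called at the other days. HMCN1 was 1 of the 2 higher (log2 1.69, SE 0.43, edgeR adjusted p = 0.0189). Early enzyme gave none at day 2.5, 1 higher and 2 lower at day 4.5, and 1 higher and 2 lower at day 7.5. LAMA2, the alpha chain of muscle laminin, was lower in KO at day 4.5 (log2 −2.13, SE 0.46, edgeR adjusted p = 0.00406) and with early enzyme at days 4.5 (−2.98, adjusted p = 0.0104) and 7.5 (−3.24, adjusted p = 0.000435). SMOC1, a calcium-binding basement membrane protein, was higher with early enzyme at days 4.5 (2.16, adjusted p = 0.0147) and 7.5 (3.14, adjusted p = 0.00209) and with late enzyme at day 7.5 (2.95, adjusted p = 0.0153). FRAS1 was lower in KO at day 4.5 (−1.23, adjusted p = 6.93e-05), with early enzyme at day 7.5 (−2.13, adjusted p = 0.00571) and with late enzyme at day 4.5 (−2.06, adjusted p = 0.0414).

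Of 10 collagen and laminin processing genes, the collagen chaperone SERPINH1 was called in these comparisons, higher with late enzyme at day 7.5 (1.23, edgeR adjusted p = 0.0348), and no other. Of 10 receptors tested, the laminin-binding integrin chain ITGA6 was lower in KO at day 4.5 (log2 −1.68, adjusted p = 0.00578) and ITGA7, a laminin-binding chain of muscle, was lower with early enzyme at day 4.5 (−1.51, adjusted p = 0.0209). ITGA2, a collagen-binding integrin chain, was higher with early enzyme at day 7.5 (4.15, adjusted p = 0.00648). Of 10 proteases and inhibitors tested, TIMP3 was lower in KO at day 4.5 (−1.12, adjusted p = 0.00859), and ADAMTS9 was higher with early enzyme at day 2.5 (1.23, adjusted p = 0.0151) and with late enzyme at day 7.5 (1.13, adjusted p = 0.0390). Over time in WT, LAMA4 rose by 7.83 from day 2.5 to 4.5 (log2, adjusted p = 2.614e-14) and LAMA2 by 3.04 from day 4.5 to 7.5 (edgeR adjusted p = 2.457e-05), the latter step being the one in which LAMA1 fell.

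Across the 16 group means the genes fell into different orders. COL4A1, COL18A1, LAMB1, HSPG2 and NID1 were highest in untreated cardioids of day 7.5, at 77.9, 379.7, 212, 184 and 62.3 CPM. COL4A1, COL4A2, COL18A1 and HSPG2 were lowest with early enzyme at day 4.5, at 11.9, 31.5, 55.1 and 24.8 CPM. Most neighbours in these orders overlapped: of 15 neighbouring pairs, 4 were apart for COL18A1, 2 for NID2, 1 each for COL4A2 and LAMA1, and none for the other 6 genes. Pearson correlations of mean log2 CPM over the 16 groups, given as a description of means that share days and lines, were 0.91 for COL4A1 with COL4A2, 0.87 for COL4A2 with HSPG2 and for LAMC1 with NID2, and −0.36 for LAMA5 with LAMB1. Matches were also sought among all genes kept over the 65 libraries, with the genes of the set itself left out. The pattern most like NID2 was that of MEF2C (r = 0.99). That most like HSPG2 was FBXL22 (0.94) followed by LAMA2 (0.93), and that most like COL4A2 was MAPK4 (0.93). That most like COL18A1 was MYL9 (0.89) followed by MYL7 (0.89). LAMA1 was most like CBLN2 (0.91), LAMA5 most like TMEM121B (0.96), LAMC1 most like AXL (0.96) and NID1 most like AGGF1 (0.94). COL4A1 and LAMB1 had weaker best matches outside the set, NUDT16 (0.85) and LGALS3 (0.86). COL4A1 was closer to its partner chain COL4A2 (0.91) than to NUDT16.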

How the data were processed

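Raw counts per gene were deposited by the authors in 1 table; featureCounts (Subread 1.6.2) and hg38 (GRCh38) are named in the submitters' processing notes, while the aligner, strand setting and use of molecular identifiers are not given in the sources used here. Of its columns 65 matched listed samples, and 4 others were not used. Current gene symbols were found for 58207 of the 58735 gene IDs. All 58735 IDs were in GENCODE 29, which gave the gene positions. Promoters are from RefSeq GRCh38.p14. Depth was 831062 to 3574843 counts; replicates came from separate libraries of 8 pooled cardioids, and where lines repeat, p-values measure the spread between these libraries.

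Counts were tested with edgeR 4.0.16 (R 4.3.3, limma 3.58.1): minimum count 10, TMM, robust quasi-likelihood, each group given its own mean, an arm fitted as a whole, Benjamini-Hochberg adjustment over all genes tested, threshold 0.05. Log2 CPM used a prior count of 2. Alternatives were DESeq2 1.42.0, its size factors, no filter, only the libraries compared, a replicate block, each library left out and, added after seeing the data, block C alone. In the enzyme arm the replicate number is the cell line, so it pairs libraries (same-line deviations correlated above 0.1 in 14 of 21 pairs). The fit was tested on simulated data. The 10 genes are all described; of the other lists, at most the 3 largest called changes per list and comparison are named. The genes and lists were chosen with earlier results of these data known.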

Additional observations from a re-analysis of the deposited data

Results flagged for a closer look

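Of 60 gene and group combinations of 4 to 10 libraries, 5 (8.33%) held a library far from the rest by Dixon's test, where chance gives about 1 in 20. COL4A1 in WT at day 1.5 was at 41.4 CPM in WT_R1, with the nearest library at 23.8. LAMA5 in KO at day 2.5 was at 77.0 CPM in cl4_R1, with the nearest at 40.7, and LAMC1 in KO at day 1.5 was at 49.3 CPM in cl4_R1, with the nearest at 152; cl4_R1 is the KO library of block A, which held 77.0 to 99.6 CPM of LAMA5 and 49.3 to 67.1 CPM of LAMC1 over both genotypes at those days. NID2 in WT at day 1.5 was at 1.03 CPM in cl43_WT_UT, with the nearest at 0.28, and in KO at day 2.5 at 18.5 CPM in cl46_R1, with the nearest at 8.36.

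The early enzyme effect on LAMA1 differed between days (edgeR adjusted p = 0.00727). At day 4.5 the KO and early enzyme effects differed for COL18A1 (edgeR adjusted p = 0.00903) and LAMA1 (adjusted p = 0.00594).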

How the results depend on the processing

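For the 65 pairs of gene and comparison that passed in the reported fit or in an alternative, 736 alternative values kept their direction and side of the threshold, 62 came to pass it, 63 no longer passed and none changed direction; pairs that never passed were not counted. The count of the 10 genes called moved by over 1.5 times as follows. For KO against WT at day 2.5 it was 0 and became 2 with DESeq2, 2 with the replicate block, 1 with only the libraries compared and 4 in block C alone; at day 4.5 it went from 1 to 0 in block C alone, and at day 7.5 from 0 to 1 with the replicate block and 2 with only the libraries compared. For early enzyme it went from 1 to 2 without the filter and with the replicate block at day 2.5, and from 5 to 3 with only the libraries compared at day 7.5. For late enzyme at day 7.5 it went from 2 to 4 without the filter and 0 with only the libraries compared. Between early and late enzyme it went from 0 at day 4.5 to 2 with DESeq2, 2 without the filter, 2 with the replicate block and 1 with only the libraries compared, and at day 7.5 to 1 with DESeq2 and 2 without the filter. WT steps went from 3 to 5 with the replicate block (day 1.5 to 2.5), 5 to 3 with only the libraries compared (day 2.5 to 4.5), and 2 to 4 with DESeq2 and with the replicate block (day 4.5 to 7.5). The change over days went from 0 to 2 with DESeq2 and 4 with the replicate block for KO, and from 1 to 5 with DESeq2, 5 without the filter and 3 with the replicate block for early enzyme. KO against early enzyme at day 7.5 went from 0 to 1 with the replicate block. The cause was not tested.

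With each library left out in turn, KO against WT gave 0 to 0, 0 to 1, 0 to 1 and 0 to 0 genes over the 4 days. Early enzyme gave 1 to 3, 3 to 5 and 4 to 6, late enzyme 0 to 1 and 0 to 3, and early against late 0 to 1 and 0 to 0. WT steps gave 2 to 3, 3 to 5 and 2 to 3, and untreated steps 2 to 5 and 2 to 5. The change over days gave 0 to 1 for KO and 1 to 2 for early enzyme, and KO against early enzyme 0 to 0, 0 to 2 and 0 to 0.

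Over all genes the calls also moved. KO at day 2.5 had 137, against 232 with DESeq2, 292 with the replicate block and 535 in block C alone; at day 4.5 it had 516, against 782 with DESeq2, 829 with the replicate block, 254 without the filter, 212 with only the libraries compared and 125 in block C alone; at day 7.5 it had 48, against 115 with the replicate block and 193 with only the libraries compared. Early enzyme had 146, 443 and 425, against 241, 621 and 646 with DESeq2, 290, 662 and 713 without the filter, 90, 305 and 173 with only the libraries compared, and 228, 585 and 564 with the replicate block. Late enzyme had 28 and 84, against 90 and 199 with DESeq2, 165 and 354 without the filter, 201 and 7 with only the libraries compared, and 55 and 132 with the replicate block. Early against late had 46 and 1, against 167 and 39 with DESeq2, 296 and 80 without the filter, and 96 and 13 with the replicate block. The replicate block in the genotype arm is the run of library numbers; 9 of 32 same-number pairs and 26 of 37 same-block pairs correlated above 0.1, and no label says what a block is. With this replicate block LAMA1 (−1.22, adjusted p = 0.000441) and NID2 (−1.53, 0.0149) passed in KO at day 2.5 and LAMB1 (−1.29, 0.00154) at day 7.5.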
